A study of Homo sapiens with 12 samples.

Results

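FAS and ACTA2 are neighbouring genes on chromosome 10 whose transcripts start toward each other and overlap at their 5′ ends, an arrangement known as convergent promoters. They were taken by gene name from both deposited RNA-seq tables and are 2 of the 25914 genes listed in each, FAS as ENSG00000026103 and ACTA2 as ENSG00000107796. The tables come from HCT116 cells, a human colon cancer line, and RPE-1 hTERT cells, an immortalized line from retinal pigment epithelium, both labelled wild-type. Each line was treated for 24 h with 10 µM Nutlin-3a or with the solvent DMSO, with 3 libraries in each of these groups and 12 in all. Both are single established lines, and the study's methods name biological replicates for RPE-1, whereas neither they nor the labels say how the HCT116 libraries of a group were obtained. Nutlin-3a blocks the binding of MDM2 to p53, so that p53 accumulates and activates its target genes.

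FAS is a cell surface death receptor of the TNF receptor superfamily. Binding of FAS ligand leads the receptor to recruit the adaptor FADD and caspase-8, which starts extrinsic apoptosis. ACTA2 is the smooth muscle α-actin, a contractile fiber protein of smooth muscle cells and myofibroblasts. FAS is a known direct target of p53, and the study took up this locus to ask whether polymerases run toward each other on one and the same allele.

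The measurement used here is the base mean, the mean read count of a gene after scaling for library size, as the authors computed it. It is 1 value per gene and was identical in both tables for all 25914 genes. It is therefore a single level shared by both cell lines and both treatments, and which libraries entered it is not stated. The remaining numeric columns hold the authors' own comparison of the treatments and were not used, so no difference between Nutlin-3a and DMSO, and none between RPE-1 and HCT116, is given. Values per library, their spread and the depth of the libraries are unknown, and no test was made on any level below.

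In GENCODE 44 on GRCh38, FAS lies on the plus strand of chromosome 10 from 88953813 to 89029605, and ACTA2 on the minus strand from 88935074 to 88991339. The gene bodies overlap by 37527 bp, from the outermost FAS start at 88953813 to the outermost ACTA2 start at 88991339. A few FAS transcripts begin far upstream, and only 2 of the 6 ACTA2 transcripts reach into the overlap. The canonical FAS transcript, FAS-221, starts at 88990798 and has 9 exons, of which the first is 109 bp long. Its first intron runs from 88990907 to 89003028 and is 12122 bp long.

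ACTA2 has starts of both kinds, near FAS and far from it. The canonical ACTA2 transcript, ACTA2-201, starts at 88952773, a position that lies 38025 bp outside the canonical FAS transcript, and these canonical transcripts do not overlap. A distal start is used by 2 of the 6 annotated ACTA2 transcripts, and the other 4 begin at the canonical start. ACTA2-202 starts at 88991339 and ACTA2-203 at 88991332, which is 541 bp and 534 bp past the canonical FAS start and inside the first FAS intron. Only through these distal transcripts do FAS and ACTA2 face each other. Their first exons, of 401 bp and 311 bp, are untranslated, and they join the exons shared with the canonical transcript across a long intron. Because the base mean gives all exons of a gene a single value, it does not show how much of the ACTA2 level came from the distal and how much from the canonical start.

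FAS starts spread across the same stretch. Of 61 annotated FAS transcripts, 40 begin within 250 bp of the canonical start, 47 begin before the distal ACTA2 start and 14 at or past it. FAS-201 and FAS-256 are annotated without a defined coding sequence. They begin 490 bp past the canonical start and 44 bp from the start of ACTA2-203, which makes them the closest facing starts of the pair.

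**Figure D1:**
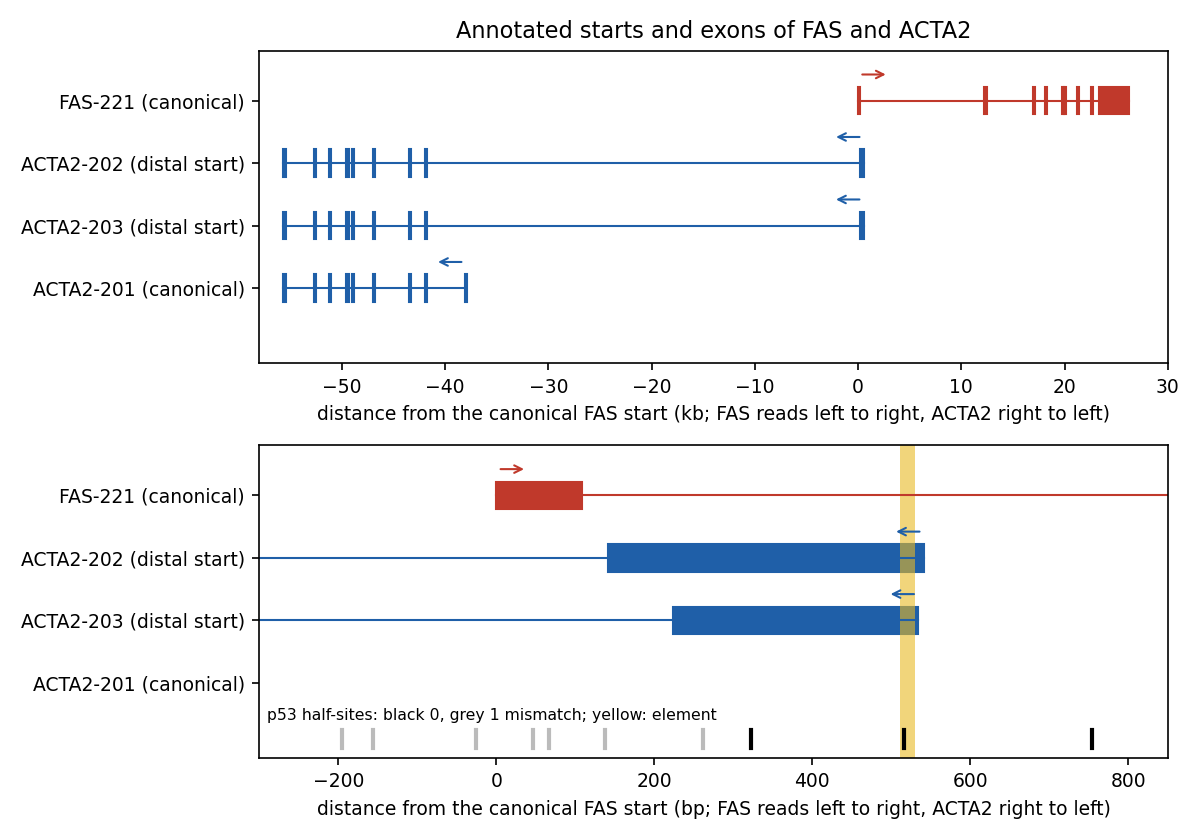
Exons (boxes), introns (lines) and direction of transcription (arrows) of the canonical FAS transcript and of 3 ACTA2 transcripts, by distance from the canonical FAS start in kb (top) and bp (bottom). The distal ACTA2 starts lie 541 bp and 534 bp to the right of the FAS start, whereas the canonical ACTA2 start lies 38025 bp to its left; ticks mark p53 half-site matches and the yellow band the p53 element.

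p53 binds DNA as a tetramer, and its element consists of a pair of half-sites with a C and a G at fixed places in the core of each. The p53 half-site consensus, 10 bases long and equal to its own reverse complement, was searched from 250 bp before the canonical FAS start to 250 bp past the distal ACTA2 start. This stretch of 1042 bp held 3 half-sites without a mismatch, at 317 to 326 bp, 511 to 520 bp and 749 to 758 bp past the FAS start, all within its first intron. With 1 mismatch allowed, it held 10. An element of 20 bases, a pair of half-sites side by side with the C and G of each core kept, was allowed at most 2 mismatches in all. The single match in the stretch was at chr10:88991309-88991328. It begins with the half-site at 511 bp, and both mismatches lie in the other 10 bases, nearer to the ACTA2 start. With 2 mismatches, those bases are not among the 10 half-sites. The element is shown on both strands with 5 bases on either side and the core letters of each half-site in capitals, because it occupies the FAS intron and the untranslated first exon of both distal ACTA2 transcripts at once.

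p53 element, FAS strand: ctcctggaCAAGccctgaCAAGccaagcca

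p53 element, ACTA2 strand: tggcttggCTTGtcagggCTTGtccaggag

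Read on the ACTA2 strand, the element begins 11 bp past the start of ACTA2-202 and ends 30 bp past it. Among 35116 RefSeq promoter windows of 300 bp in GRCh38.p14, which reach from 250 bp before a start to 50 bp after it, an element of this kind was present in 100 (0.285%). The element was defined after the sequences were seen, and its limit of 2 mismatches is the number found here. The share is therefore a description and no independent measure of rarity. By comparison, 6.63% of the windows held a half-site without a mismatch and 63.7% held one with up to 1 mismatch, so single half-sites are common. RefSeq gives 3 such windows for FAS and 2 for ACTA2. The element was present in the distal ACTA2 window and in the FAS window around a start 633 bp past the canonical one, which overlap and share the element, and in none of the other 3, which include those of the canonical FAS and ACTA2 starts. A match is a description of the letters and not a measurement of binding. The study itself describes an intronic p53 binding site at FAS, upstream of the ACTA2 start, and shows p53 binding data for the locus. In another cell line it reports lower FAS and ACTA2 expression after mutating that site. Here the element lies past the annotated distal start, and whether it is the same site was not tested.

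The canonical ACTA2 promoter held letters of another kind. CArG boxes are bound by the serum response factor SRF, which drives contractile genes together with myocardin-related factors. No window of FAS or ACTA2 held the CArG consensus without a mismatch, whereas the canonical ACTA2 window held 2 with 1 mismatch, which lie 62 to 71 bp and 112 to 121 bp before the start. Across all windows, 1.29% held the exact consensus and 18.9% one with up to 1 mismatch. The letters TATAA, searched on both strands, lie 23 bp before the same start. They were present in both ACTA2 windows, in no FAS window and in 20.4% of all windows. TATAAA, present in 11.5% of the windows, was in none of those of either gene. No p53 half-site, with or without 1 mismatch, was found in the canonical ACTA2 window.

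The bases before each start that lie in no annotated untranslated region are given below. For the distal ACTA2 start these are only 71 bp, and the TATAA of its window lies outside them. Each stretch is written in the direction of its own gene, and capitals mark the CArG boxes with 1 mismatch and TATAA. The canonical ACTA2 stretch is chr10:88952774-88953023 on the minus strand, the FAS stretch chr10:88990309-88990558 on the plus strand, before the first start of the main FAS cluster, and the distal ACTA2 stretch chr10:88991357-88991427 on the minus strand.

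ACTA2, canonical start: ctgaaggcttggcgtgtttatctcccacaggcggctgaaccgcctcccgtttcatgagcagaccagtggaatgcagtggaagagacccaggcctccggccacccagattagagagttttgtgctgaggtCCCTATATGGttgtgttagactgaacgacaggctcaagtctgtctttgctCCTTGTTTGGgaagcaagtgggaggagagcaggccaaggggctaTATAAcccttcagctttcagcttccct

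FAS, start cluster: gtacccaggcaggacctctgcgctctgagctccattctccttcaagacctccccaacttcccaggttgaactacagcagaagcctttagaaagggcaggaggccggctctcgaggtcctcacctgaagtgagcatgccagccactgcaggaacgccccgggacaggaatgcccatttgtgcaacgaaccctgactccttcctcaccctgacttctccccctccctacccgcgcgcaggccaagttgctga

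ACTA2, distal start: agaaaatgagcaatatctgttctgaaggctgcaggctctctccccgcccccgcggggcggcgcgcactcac

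CG dinucleotides, the sites of DNA methylation and the mark of CpG islands, differed in number between the ACTA2 starts. The RefSeq windows of the canonical FAS start and of the distal ACTA2 start held 18 CG each, against 6 in the window of the canonical ACTA2 start and a median of 14 over all windows. The GC content was 63.0% at the canonical FAS start, 54.7% at the distal and 55.0% at the canonical ACTA2 start, beside a median of 58.7%.

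FAS had a base mean of 1198.8 and ACTA2 one of 1368.7, against a median of 149.8 over all 25914 genes. Of the listed genes, 77.6% had a lower base mean than FAS and 79.8% a lower one than ACTA2. Longer transcripts collect more reads, so genes were compared by base mean per kb of the canonical transcript, 3696 bp for FAS and 1349 bp for ACTA2. On that scale FAS stood at 324.3 and ACTA2 at 1014.6, so that FAS was at 0.320 times the ACTA2 level. The median over the 25836 genes with a length was 73.4 per kb, with 74.0% of them below FAS and 90.5% below ACTA2. Without replicate values the difference between FAS and ACTA2 has no error, and its size rests on the transcript length assumed.

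Antisense and overlapping genes could share reads with the pair. By the exons of GENCODE 44, which may differ from the gene models used for counting, FAS and ACTA2 share 387 bp on opposite strands. That is 1.32% of the FAS exons and 6.88% of those of ACTA2, and strand-specific counting keeps these apart. The lncRNA AL157394.3 (ENSG00000286116), with a base mean of 42.1, lies on the ACTA2 strand and shares 401 bp of exon with ACTA2, the length of the distal first exon of ACTA2-202. Reads of that exon and of the lncRNA therefore cannot be told apart by strand. How reads that fall on both genes were assigned is not stated, so the ACTA2 level may lack reads of the distal first exon. The lncRNA also shares 1899 bp (6.48%) with the FAS exons, on the opposite strand. STAMBPL1, a deubiquitinase gene on the FAS strand, shares 166 bp (0.566%) with the FAS exons. ACTA2-AS1 overlaps 29.1% of the ACTA2 exon bases from the opposite strand.

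The other listed genes that start within 200000 bp of the FAS start were all lower than both members per kb. There were 5 of them, with base means from 7.20 to 251.0. STAMBPL1 was the highest at 124.2 per kb, and the antisense gene ACTA2-AS1 stood at 4.66 per kb, from a base mean of 11.4. ANKRD22 had a base mean of 9.92 and the pseudogene AL513533.1 one of 7.20.

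Among the genes of death receptor signalling, FAS was in the middle of the order. Of the 21 genes on this list, 19 had a value, with a median of 342.3 per kb. Per kb, 9 of these were lower than FAS and 10 higher. The TRAIL receptor TNFRSF10B and the TNF receptor TNFRSF1A were higher, at 2178 and 2174 per kb, and TNFRSF10A was close to FAS at 316.8 per kb. The decoy receptors TNFRSF10C and TNFRSF10D, which bind TRAIL without passing on a death signal, stood at 304.8 and 616.0 per kb.

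Downstream of the receptor, the adaptor FADD was at 1102 per kb. The initiator caspase CASP8 was at 239.7 and CASP10 at 11.9 per kb. CFLAR, which competes with caspase-8 at the receptor, was at 117.8 per kb, and its canonical transcript of 14612 bp lowers that value. BID, which links the receptors to mitochondria, stood at 504.6 per kb. PEA15, an inhibitor that binds FADD, was the highest of the list at 2576 per kb. The TRAIL gene TNFSF10 was the lowest at 4.17 per kb, from a base mean of 7.83, and FASLG, the FAS ligand gene, had no value.

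**Figure D2:**
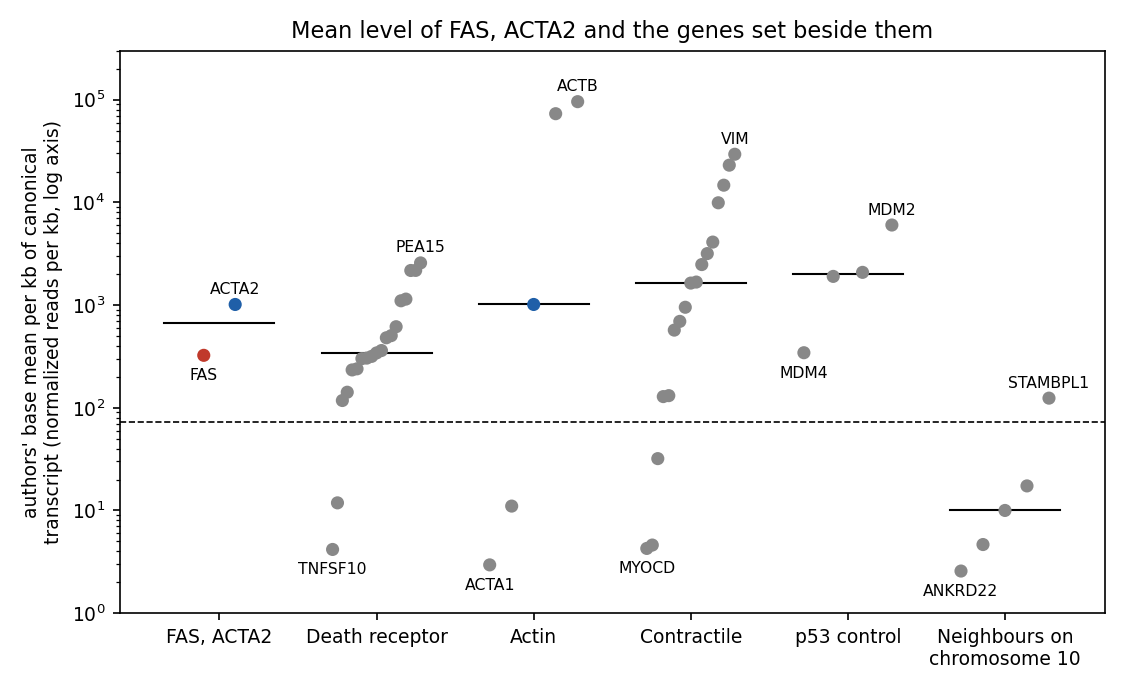
Authors' base mean per kb of canonical transcript (log axis) for FAS (red), ACTA2 (blue) and the genes of 5 lists, 1 point per gene in rank order and a bar at each median; the dashed line is the median of all genes, 73.4. FAS sits at 324.3, beside the death receptor median of 342.3, and ACTA2 at 1014.6, between the abundant and the scarce actin genes.

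ACTA2 took the middle place among the actin genes. The cytoplasmic actins ACTB and ACTG1, which build the cytoskeleton of every cell, had 95792 and 73146 per kb. The enteric smooth muscle actin ACTG2 had 11.0 and the skeletal muscle actin ACTA1 had 2.95 per kb, from base means of 16.6 and 4.40, and the cardiac actin ACTC1 had no value. In this pooled mean, ACTA2 stood far above the other muscle actins with a value and far below the cytoplasmic ones. Actin genes are alike in sequence, and the authors kept only uniquely mapped reads. Reads matching several actin genes were thus left out, by an amount that is unknown for each gene.

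The contractile genes on the list ran from 4.27 to 29460 per kb, and 8 of 17 were lower than ACTA2. That count rests on the canonical lengths, as MYLK, SRF and MRTFA were lower per kb but had higher base means than ACTA2. CNN1, LMOD1, DES, MYH11 and MYOCD were lower on both scales. The smooth muscle genes TAGLN and MYL9 had 3175 and 2482 per kb, and the tropomyosins TPM1 and TPM2 had 14720 and 9921. Smoothelin (SMTN), caldesmon (CALD1) and the myosin light chain kinase MYLK had 1677, 1639 and 952.9. Other genes of contractile muscle were lower, with CNN1 at 131.4, LMOD1 at 128.6, the desmin gene DES at 32.0 and the smooth muscle myosin MYH11 at 4.61 per kb. Among the regulators, SRF was at 694.3 and its coactivator MRTFA at 570.8 per kb, whereas the muscle coactivator MYOCD was at 4.27.

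The negative regulators of the p53 response MDM2, PPM1D and MDM4 were all higher than FAS per kb. The ubiquitin ligase MDM2 had 6025, the phosphatase PPM1D 2084 and MDM4 343.8 per kb. Of the markers of each line, 7 of 8 for HCT116 and 6 of 8 for RPE-1 had a value. The epithelial genes KRT8, CDH1 and EPCAM had 77701, 2772 and 1603 per kb and the mesenchymal gene VIM 29460. The colon factor CDX2 stood at 71.9 and VIL1 at 0.874 per kb. Of the pigment epithelium markers, RPE65 and RLBP1 had no value. MITF stood at 100.8 per kb, SERPINF1 at 59.1, and BEST1, PMEL and OTX2 at 30.7, 31.6 and 21.5 per kb. Since the mean is over pooled libraries, these values do not check the identity of either line.

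To place the pair among others, all listed genes on opposite strands with facing starts 2 to 2500 bp apart were collected from the annotation, by any transcript start. There were 2411 such pairs, 850 of them with both genes protein-coding, and FAS and ACTA2 form 1 of the latter. By its closest starts, 44 bp apart, the pair was tighter than most, since 16.5% of the protein-coding pairs were closer and their median was 234.0 bp. That distance is the smallest over 61 FAS and 6 ACTA2 transcripts, and more annotated starts can only shorten it. The number of transcripts was not adjusted for. From the canonical FAS start to the distal ACTA2 start the distance was 541 bp, which is another measure. FAS has no other protein-coding partner among these pairs, and neither has ACTA2.

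Both genes of the pair had a base mean of at least that of FAS in 132 of the 850 protein-coding pairs (15.5%), FAS and ACTA2 included. The level per kb within the pair differed by 1.65 on the log2 scale without regard to sign, and 39.8% of the protein-coding pairs had a smaller difference, with a median of 2.15. That place rests on the canonical lengths and was not recomputed with others. The ACTA2 level does not separate the distal start, which faces FAS, from the canonical one. These are shares of annotated pairs and describe where FAS and ACTA2 stand. They hold no measure of how either promoter responded to p53.

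**Figure D3:**
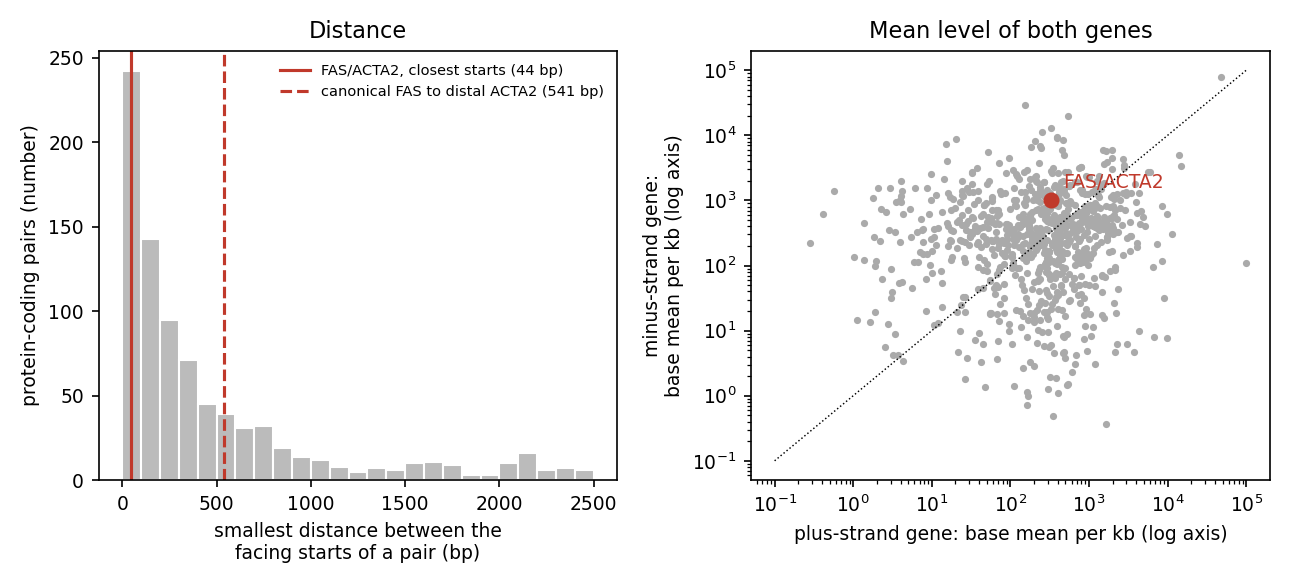
Smallest distance between facing starts (left, in bp) and base mean per kb of the plus-strand and the minus-strand gene (right, log axes, dotted line of equality) for 850 protein-coding pairs. FAS and ACTA2 lie at 44 bp by their closest starts (solid red line), the measure plotted for all pairs, the dashed line marks the 541 bp from the canonical FAS start, which is not that measure, and the red point lies at 324.3 and 1014.6 per kb.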

How the data were processed

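RNA-seq libraries, 12 in all, were made from RPE-1 and HCT116 cells. The labels name ribosomal RNA depletion and a directional kit, whereas the study's methods, which do not cover HCT116, name poly(A) selection. According to the labels and methods, the authors mapped reads to hg38 with Ensembl gene models and counted unique reads on exons by strand. The submitters' processing notes name featureCounts 2.0.1 and DESeq2 1.32.0, and the methods name later versions. Of the deposited values, only the base mean was used, a signal that averages scaled counts. The deposited fold changes, their standard errors, statistics and p-values are the authors' own comparisons and were neither used nor printed. The planned test of Nutlin-3a against DMSO needed counts per library and was not run, and protein sequences were not analysed here.

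Here base means were ranked and divided by canonical transcript length (GENCODE 44). Starts, exon overlaps and facing pairs came from the same annotation on GRCh38, the build of the files, and promoter windows from RefSeq. Pair and motif searches were tested on simulated data. Named genes were FAS and ACTA2, lists for death receptors, actins, contractile genes, p53 control and markers of either line, and listed genes within 200000 bp of the FAS start. Some listed genes are not reported here. The members and lists were chosen with earlier results of these data known. The element, CArG boxes with 1 mismatch and TATAA were searched after the sequences were seen. Alternatives covered which genes were ranked, transcript length, choice of start, distance, low values and mismatches. Python 3.11.15, numpy 2.4.6, pandas 2.3.3 and matplotlib 3.10.9 were used.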

Additional observations from a re-analysis of the deposited data

How the results depend on the processing

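The share of genes below FAS was 72.0% among genes with a base mean of at least 10 and 64.8% among protein-coding genes, and for ACTA2 74.7% and 68.3%. FAS was below ACTA2 under each length tried, at 0.168 times with all annotated exons, 0.150 times with the longest transcript and 0.876 times without length. The distance between the genes depends on the start taken: 37526 bp from the gene starts and 44 bp for the closest transcript starts. Facing pairs of any gene type numbered 2411 by any transcript start and 731 by canonical starts. Those with both genes protein-coding numbered 850 and 51. The canonical starts were a choice made after seeing the data, under which FAS and ACTA2 are no pair, as they are none by gene starts. Half-sites rose from 3 to 10 with 1 mismatch, by construction. With base means of at least 10, the median base mean went from 1127 to 1180 for the death receptor list and from 6221 to 6916 for the actin and contractile lists, and medians per kb were not recomputed. The start distance by RefSeq and the numbers of pairs up to 1000 bp apart and by gene starts stayed within 1.5 times of the values reported. No paired analysis was possible because the base mean is 1 value per gene with none per library, so leaving out single libraries, the replicate block and other count tests were not run either. Read depth is unknown, so the precision of the lowest values is unknown too.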
